A study of Arabidopsis thaliana with 8 samples.

Results

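Alpha-expansins are secreted proteins of the plant cell wall that loosen the contacts between cellulose and the other wall polymers without cutting them. A wall loosened in this way yields to the pressure of the cell, and expansin genes are accordingly known from tissues that are growing. Auxin, gibberellin and brassinosteroid change the transcript levels of several of them. The 9 genes described here are EXPA1 (AT1G69530), EXPA3 (AT2G37640), EXPA4 (AT2G39700), EXPA5 (AT3G29030), EXPA6 (AT2G28950), EXPA8 (AT2G40610), EXPA10 (AT1G26770), EXPA11 (AT1G20190) and EXPA15 (AT2G03090) of Arabidopsis thaliana. They were found by their locus identifiers in a table of 34354 genes, where all 9 had a row. Another 16 alpha-expansins, 6 beta-expansins and 4 expansin-like genes in the same table were used as the rest of the family.

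Plants were raised in soil at 22 °C to an age of 3 weeks and fell into 4 groups of 2 libraries. Mutant heat plants carried pif4-2 and pif5-3 in the Col-0 background and were exposed to 42 °C for 5 h, with harvest after 3 days of recovery. Mutant mock plants had the same genotype and a mock treatment. Wild-type heat and wild-type mock plants were Col-0 with those same treatments. RNA was taken from the third and the fourth rosette leaf, at a stage when leaf margins had started to yellow, and the series' design text describes the replicates as biological. PIF4 and PIF5 encode transcription factors of light and temperature signalling that promote elongation growth. No label states on which day mock leaves were harvested, so leaf age and heat cannot be told apart with certainty.

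Levels are in FPKM, which divides the reads of a gene by its length and by the depth of the library, so that they can be set side by side between genes. Changes are differences of log2(FPKM + 1) with their SE from limma. It fits a linear model to each gene and draws on all genes to estimate the spread of each. A gene was called at an adjusted p (Benjamini-Hochberg, over 16831 genes) below 0.05. Depth was between 16852240 and 29535916 reads per library, recovered from the steps of the FPKM values. PIF4 was at 25.6 and 23.8 FPKM in mutant heat and 33.5 and 33.6 FPKM in mutant mock, against 97.2 and 100.8 FPKM in wild-type heat and 131 and 131 FPKM in wild-type mock. PIF5 was at 4.74 and 3.98 FPKM in mutant heat and 5.60 and 4.70 FPKM in mutant mock, against 54.3 and 54.9 FPKM in wild-type heat and 63.2 and 66.4 FPKM in wild-type mock. For both mutated genes the mutant libraries were thus the lower ones throughout. The summed FPKM of 5 mesophyll markers was at least 16621 in every library. The 3 seed markers were listed at 0 throughout, and 4 shoot meristem markers summed to at most 0.163 FPKM. Flower markers summed to 1.39 to 3.22 FPKM. Among the root markers the root hair genes COBL9 and RHD6 were listed at 0, while PYK10 was at 11.0 to 24.5 FPKM and SCR at 8.47 to 10.6 FPKM. Leaf bulk RNA cannot tell apart fewer cells of a type and less RNA per cell.

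Of the 9 members, 8 passed the filter on low values, with more than 1 FPKM in all 8 libraries. EXPA15 stayed below 1 FPKM in every library and entered no test. EXPA1 and EXPA10 were higher after heat in both genotypes. EXPA8, EXPA11 and EXPA5 were lower after heat in wild-type leaves, while mutant leaves had low levels with and without heat. EXPA6, EXPA4 and EXPA3 spanned narrower ranges. The plot of levels by library shows these 3 kinds of pattern.

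**Figure D1:**
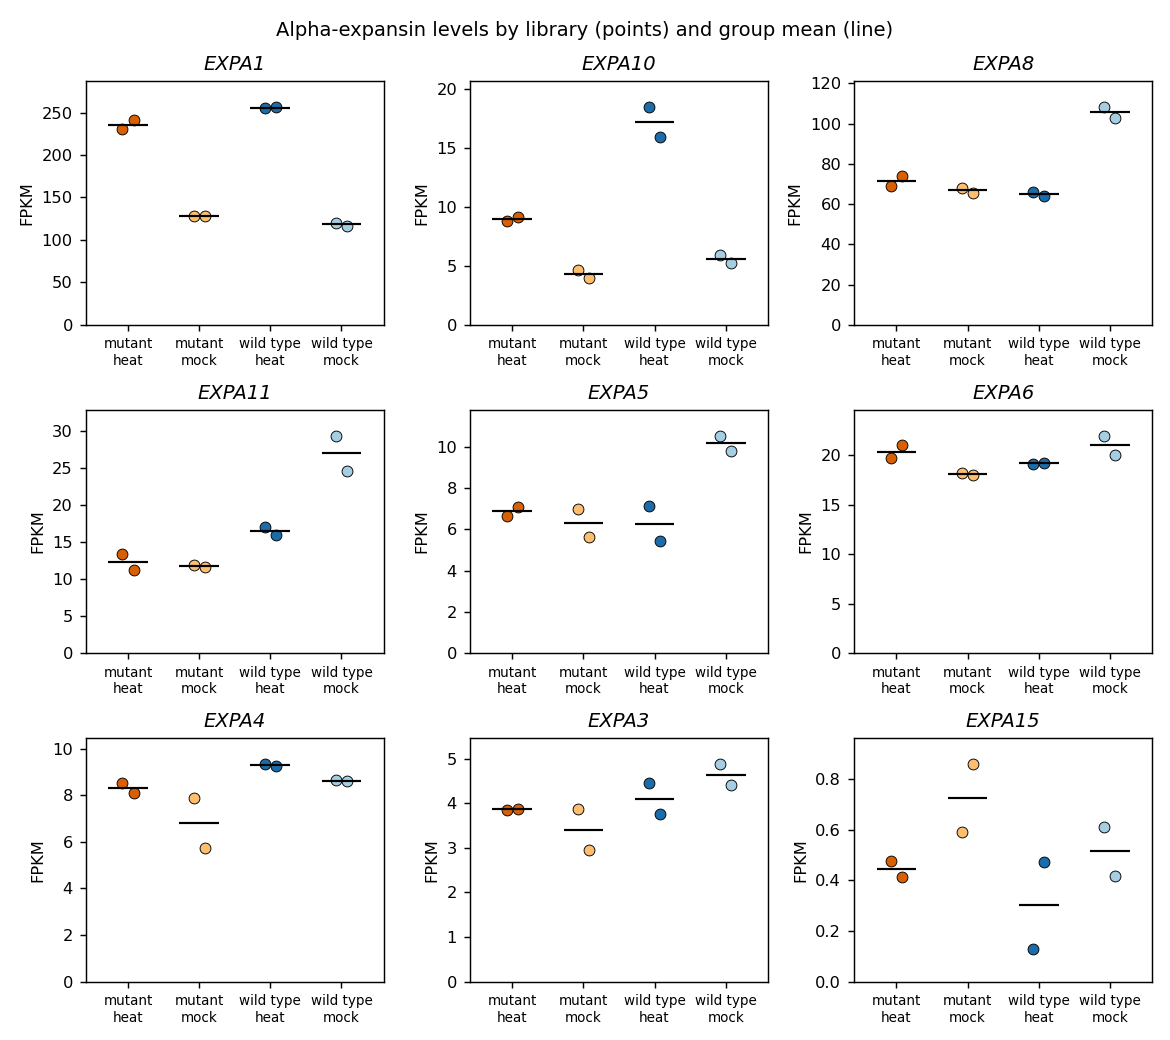
FPKM (vertical axes, each from 0) of the 9 alpha-expansins in mutant heat, mutant mock, wild-type heat and wild-type mock leaves; points are libraries, 2 a group, and lines are group means. EXPA1 and EXPA10 are high after heat, with EXPA10 at 17.2 FPKM on average in wild-type heat, while EXPA8, EXPA11 and EXPA5 are high in wild-type mock leaves.

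EXPA1, an expansin linked to the opening of stomata, had 231 and 241 FPKM in mutant heat and 129 and 128 FPKM in mutant mock. It had 255 and 256 FPKM in wild-type heat and 120.4 and 117 FPKM in wild-type mock. Heated libraries of either genotype lay above all mock libraries. EXPA1 rose after heat in the mutant by 0.87 ± 0.04 on the log2 scale (adjusted p = 5.3e-07) and in the wild type by 1.103 ± 0.04 (adjusted p = 9.4e-10). In linear terms of FPKM + 1 this was 1.83-fold in the mutant and 2.15-fold in the wild type. The rise was smaller in the mutant, with a difference of -0.23 ± 0.06 between the 2 heat changes (adjusted p = 0.0090). This difference missed the threshold with median-of-ratios scaling (-0.13, adjusted p = 0.11) and without an intensity trend (-0.23, adjusted p = 0.075).

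EXPA10, whose reduction is known to give smaller leaves, had 8.83 and 9.11 FPKM in mutant heat and 4.65 and 3.93 FPKM in mutant mock. In wild-type heat it had 18.5 and 15.9 FPKM, and in wild-type mock 5.93 and 5.26 FPKM. The 4 groups did not overlap, and wild-type heat stood highest. EXPA10 rose after heat in the mutant by 0.92 ± 0.10 (adjusted p = 0.00021) and in the wild type by 1.46 ± 0.10 (adjusted p = 3.6e-07). These correspond to 1.89-fold and 2.76-fold on the FPKM + 1 scale. The difference between the heat changes was -0.55 ± 0.15 (adjusted p = 0.014), and the mutant was lower than the wild type after heat by -0.86 ± 0.10 (adjusted p = 5.8e-05). The difference between heat changes missed the threshold without mutant mock replicate 1 (-0.45, adjusted p = 0.052) and without wild-type heat replicate 1 (-0.45, adjusted p = 0.073), as it did under quantile scaling (-0.40, adjusted p = 0.062).

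The 300 bases before the annotated starts of these 2 genes are shown because they resemble each other, and because PIF proteins are known to bind the G-box CACGTG and the PBE-box CACATG. Sequences are from the TAIR10.1 reference by RefSeq, whereas the submitters' processing notes name TAIR10. They run 5′ to 3′ on the strand of the gene. Capitals mark the PBE-box, read CACATG or CATGTG depending on the strand, and the auxin response element TGTCTC, which reads GAGACA on the other strand. The EXPA1 window is chr1:26141426-26141725 on the plus strand and the EXPA10 window is chr1:9259132-9259431 on the plus strand.
EXPA1: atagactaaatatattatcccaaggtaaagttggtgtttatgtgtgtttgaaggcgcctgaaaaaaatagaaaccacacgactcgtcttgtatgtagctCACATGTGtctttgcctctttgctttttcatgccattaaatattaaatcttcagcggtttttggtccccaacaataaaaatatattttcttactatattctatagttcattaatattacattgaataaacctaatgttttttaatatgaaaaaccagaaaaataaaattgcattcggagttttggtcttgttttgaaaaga
EXPA10: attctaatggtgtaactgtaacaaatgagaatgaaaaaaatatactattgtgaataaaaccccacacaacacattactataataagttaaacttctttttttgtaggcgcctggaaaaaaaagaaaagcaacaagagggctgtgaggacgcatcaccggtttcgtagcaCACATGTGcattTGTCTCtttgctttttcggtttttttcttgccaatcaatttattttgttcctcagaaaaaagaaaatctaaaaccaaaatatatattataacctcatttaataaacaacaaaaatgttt

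Both windows held 2 PBE-boxes on opposite strands that overlap to form CACATGTG, starting 201 bases before the start of EXPA1 and 131 bases before the start of EXPA10. That 8-base word occurred in 126 of 27443 windows of the same length before protein-coding genes (0.459%), and in no other member. It was looked for after these 2 windows had been read. The windows of EXPA1 and EXPA10 also shared a run of 14 bases, ctctttgctttttc, which begins 186 bases before the EXPA1 start and 116 bases before the EXPA10 start. Among all pairs of the 9 members this was the longest shared run, followed by 12 bases between EXPA3 and EXPA10. The remaining pairs shared runs of 7 to 11 bases. EXPA10 held 1 auxin response element as well. A match is a run of letters in the reference and says nothing of binding in these leaves.

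EXPA8 was the second most abundant member. It had 68.8 and 74.1 FPKM in mutant heat and 68.2 and 65.6 FPKM in mutant mock, against 66.1 and 64.2 FPKM in wild-type heat and 108 and 103 FPKM in wild-type mock. The wild-type mock libraries stood above the other 6, which lay within a narrow band. EXPA8 fell after heat in the wild type by 0.69 ± 0.05 on the log2 scale (adjusted p = 5.2e-07). In the mutant its heat change was 0.09 ± 0.05 (adjusted p = 0.22), with a 95% interval of -0.0187 to 0.204. The 2 heat changes differed by 0.78 ± 0.07 (adjusted p = 9.2e-06). Between genotypes EXPA8 was lower in the mutant in mock by -0.65 ± 0.05 (adjusted p = 3.2e-06). After heat the genotypes differed by 0.13 ± 0.05 (adjusted p = 0.075), a value past the threshold with median-of-ratios scaling (0.17, adjusted p = 0.028) or quantile scaling (0.16, adjusted p = 0.031). With median-of-ratios scaling the heat change in the mutant also passed (0.17, adjusted p = 0.041).

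EXPA11 had 13.3 and 11.2 FPKM in mutant heat and 11.9 and 11.7 FPKM in mutant mock. It had 17.1 and 15.9 FPKM in wild-type heat and 29.3 and 24.6 FPKM in wild-type mock. The 4 mutant libraries were the lowest, and among wild-type libraries heat lay below mock. EXPA11 fell after heat in the wild type by 0.67 ± 0.10 (adjusted p = 0.00014), while the change in the mutant was 0.05 ± 0.10 (adjusted p = 0.75). These heat changes differed by 0.72 ± 0.13 (adjusted p = 0.0018). The mutant was lower in mock by -1.12 ± 0.10 (adjusted p = 6.3e-06), a 2.18-fold difference on the FPKM + 1 scale and the widest genotype difference of any member in mock. It was lower after heat by -0.40 ± 0.10 (adjusted p = 0.0076), a call lost without mutant heat replicate 2 (-0.29, adjusted p = 0.082) and without wild-type heat replicate 1 (-0.35, adjusted p = 0.073).

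EXPA5, an expansin gene responsive to brassinosteroid, had 6.67 and 7.07 FPKM in mutant heat and 6.98 and 5.63 FPKM in mutant mock. It had 7.12 and 5.45 FPKM in wild-type heat and 10.5 and 9.79 FPKM in wild-type mock. As for EXPA8, the wild-type mock libraries stood above the other 6, which overlapped between groups. EXPA5 fell after heat in the wild type by 0.63 ± 0.12 (adjusted p = 0.0016), with a change of 0.11 ± 0.12 in the mutant (adjusted p = 0.55). The heat changes differed by 0.74 ± 0.17 (adjusted p = 0.0073). In mock EXPA5 was lower in the mutant by -0.62 ± 0.12 (adjusted p = 0.0041), and after heat the genotypes differed by 0.12 ± 0.12 (adjusted p = 0.51, 95% interval -0.15 to 0.39).

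The heat comparison in the wild type, the genotype comparison in mock and the difference between heat changes all use the 2 wild-type mock libraries. Their values for EXPA8, EXPA11 and EXPA5 are therefore not independent of each other. Without either wild-type mock library, or any other single library, all 3 genes stayed called in these 3 comparisons. Over the libraries left out in turn, the wild-type heat change was -0.72 to -0.65 for EXPA8, -0.79 to -0.55 for EXPA11 and -0.79 to -0.46 for EXPA5. Of 5 epidermis markers 4 were tested, and ATML1, PDF2, FDH and CER5 were lower after heat in both genotypes, in the mutant too, where no fall of EXPA8, EXPA11 or EXPA5 was called. In mock FDH and CER5 were lower in the mutant, and after heat FDH and CER5 were lower and ATML1 higher in the mutant. The summed epidermis FPKM was 114 to 119 in mutant heat and 146 to 147 in mutant mock, against 128 to 133 in wild-type heat and 179 to 180.4 in wild-type mock. PDF1 reached at most 0.0326 FPKM. Mesophyll markers moved too. All 5 (RBCS1A, LHCB1.1, LHCB1.2, RCA and LHCB3) were higher after heat in the mutant, by 0.28 to 0.63 on the log2 scale, while in the wild type RBCS1A and RCA were higher and the other 3 lower, by -0.34 to -0.25. In mock the same 3, LHCB1.1, LHCB1.2 and LHCB3, were lower in the mutant by -0.74 to -0.23, and their heat changes differed by 0.62 to 0.87. After heat these 3 were higher and RCA lower in the mutant. Summed mesophyll FPKM was 21929 and 22709 in mutant heat and 16621 and 16967 in mutant mock, against 19930.5 and 20939 in wild-type heat and 19974 and 19556 in wild-type mock. The part of epidermal and mesophyll cells in the expansin values was not tested.

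The windows before EXPA8, EXPA11 and EXPA5, the genes high in wild-type mock leaves, are shown for comparison with those of EXPA1 and EXPA10, with the same marks. All 3 lie on the minus strand, EXPA8 at chr2:16950706-16951005, EXPA11 at chr1:6999840-7000139 and EXPA5 at chr3:11013452-11013751.
EXPA8: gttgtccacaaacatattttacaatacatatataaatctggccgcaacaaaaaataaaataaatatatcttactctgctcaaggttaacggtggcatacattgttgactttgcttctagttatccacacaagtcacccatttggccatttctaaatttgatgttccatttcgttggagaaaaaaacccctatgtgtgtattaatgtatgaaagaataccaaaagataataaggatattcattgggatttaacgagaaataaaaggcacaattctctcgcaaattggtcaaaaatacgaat
EXPA11: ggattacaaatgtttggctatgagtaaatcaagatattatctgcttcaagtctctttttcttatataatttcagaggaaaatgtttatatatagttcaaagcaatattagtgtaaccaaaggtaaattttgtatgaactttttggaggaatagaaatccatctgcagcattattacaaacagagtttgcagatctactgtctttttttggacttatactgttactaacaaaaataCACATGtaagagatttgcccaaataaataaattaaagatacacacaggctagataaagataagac
EXPA5: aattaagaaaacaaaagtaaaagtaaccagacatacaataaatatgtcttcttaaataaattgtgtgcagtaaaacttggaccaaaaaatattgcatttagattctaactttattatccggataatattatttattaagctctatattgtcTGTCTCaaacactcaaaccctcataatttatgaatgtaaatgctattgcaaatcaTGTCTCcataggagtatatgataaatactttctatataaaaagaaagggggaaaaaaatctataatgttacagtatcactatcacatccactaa

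EXPA8 matched none of the motifs, EXPA11 held 1 PBE-box and EXPA5 held 2 auxin response elements. The members EXPA3, EXPA4 and EXPA15 held none of them, EXPA6 held 1 auxin response element, and no member held a G-box. Over all 27443 windows, 7.09% held a G-box, 13.1% a PBE-box and 13.0% an auxin response element.

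**Figure D2:**
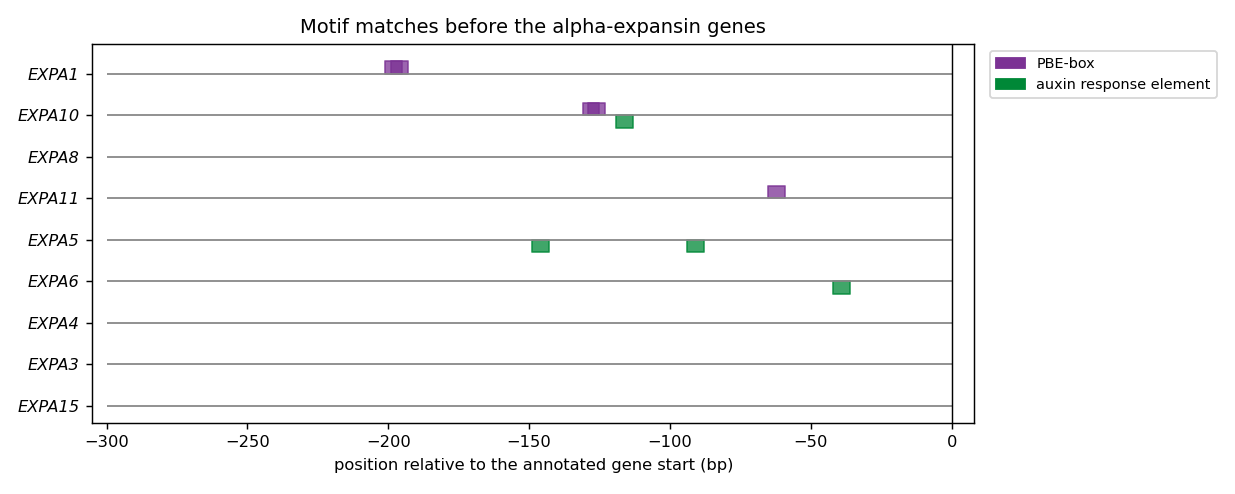
Motif matches in the 300 bp before the annotated gene start (horizontal axis, bp) for the 9 alpha-expansins; boxes above a line are PBE-boxes and boxes below it auxin response elements. The overlapping pairs of PBE-boxes stand in EXPA1 and EXPA10.

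The remaining members varied less. EXPA6 had 19.7 and 21.0 FPKM in mutant heat and 18.2 and 17.9 FPKM in mutant mock, against 19.1 and 19.2 FPKM in wild-type heat and 22.0 and 20.01 FPKM in wild-type mock. No heat change of EXPA6 passed the test, with 0.16 ± 0.07 in the mutant (adjusted p = 0.11) and -0.12 ± 0.07 in the wild type (adjusted p = 0.18). The mutant value passed with median-of-ratios scaling (0.24, adjusted p = 0.033) or quantile scaling (0.22, adjusted p = 0.0498). The difference between these changes was called at 0.28 ± 0.09 (adjusted p = 0.039), but only 2 of the 8 libraries could be left out singly without losing it, mutant heat replicate 1 and wild-type mock replicate 2. Without any of the other 6 it was 0.22 to 0.29 with adjusted p = 0.069 to 0.15, and at an unmoved 0.28 it missed the threshold without an intensity trend (adjusted p = 0.067) and without the filter on low values (adjusted p = 0.054). The call held in 8 of 16 alternatives.

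EXPA4 had 8.51 and 8.11 FPKM in mutant heat and 7.88 and 5.72 FPKM in mutant mock, against 9.34 and 9.27 FPKM in wild-type heat and 8.65 and 8.59 FPKM in wild-type mock. Its widest gap between replicates was that in mutant mock, and no comparison was called. Without mutant mock replicate 1, however, the heat change in the mutant was 0.47 (adjusted p = 0.015) and the genotype difference in mock -0.52 (adjusted p = 0.0071). EXPA3, listed as EXP3 in the annotation, had 3.85 and 3.88 FPKM in mutant heat and 3.87 and 2.95 FPKM in mutant mock, against 4.44 and 3.75 FPKM in wild-type heat and 4.88 and 4.40 FPKM in wild-type mock. No comparison of EXPA3 was called either, and the genotype difference in mock of -0.36 ± 0.13 (adjusted p = 0.062) passed without mutant mock replicate 1 (-0.51, adjusted p = 0.032). That difference also passed with median-of-ratios scaling (-0.41, adjusted p = 0.0402) and quantile scaling (-0.43, adjusted p = 0.036), as did that of EXPA4 (-0.37 and -0.39, adjusted p = 0.042 for each).

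EXPA15 had 0.479 and 0.414 FPKM in mutant heat and 0.590 and 0.86 FPKM in mutant mock, against 0.131 and 0.475 FPKM in wild-type heat and 0.613 and 0.419 FPKM in wild-type mock. These rested on 4 to 27 reads per library. The lowest value, in wild-type heat replicate 1, had an exact Poisson 95% interval of 0.0356 to 0.334 FPKM, and the highest, in mutant mock replicate 2, one of 0.567 to 1.25 FPKM, for counting error only. Tested without the filter, EXPA15 had adjusted p of 0.29 to 0.95 over the 5 comparisons, so no difference was detectable at this depth. The other members rested on 90 to 7163 reads per library.

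**Figure D3:**
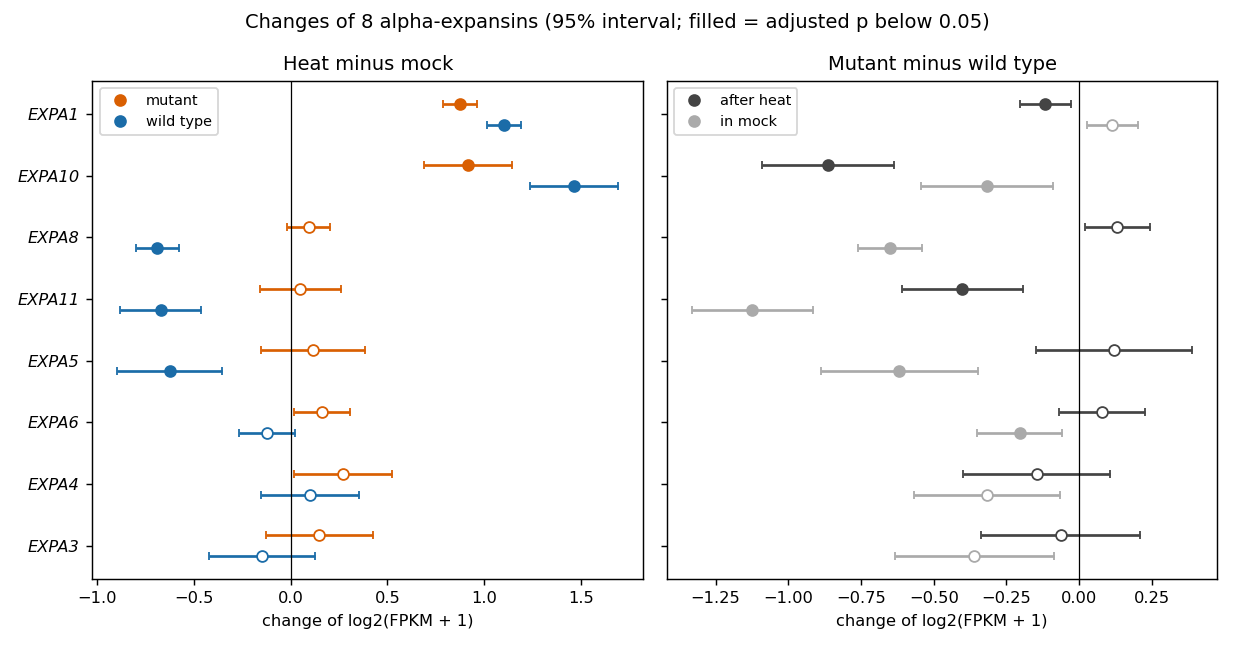
Differences of log2(FPKM + 1) (horizontal axes) for the 8 tested alpha-expansins, with heat minus mock on the left (mutant above wild type) and mutant minus wild type on the right (after heat above mock). Bars are 95% intervals and filled points passed the test: the left panel has 2 filled points for the mutant and 5 for the wild type.

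In counts, 2 of the 8 tested members rose after heat in the mutant and 0 fell, where limma called 20.2% of all genes, 6.28% higher and 13.9% lower. At an unadjusted p below 0.05 limma also found 0 lower members, and limma-voom on recovered reads called 0. In the wild type 2 rose and 3 fell, where 38.4% of all genes were called, 21.5% higher and 16.9% lower. The mutant was lower than the wild type in mock for 5 members and higher for 0, where 20.7% of all genes were called, 13.0% higher and 7.69% lower. After heat it was lower for 3 members and higher for 0, where 28.6% were called, 11.0% higher and 17.6% lower. In each of these 2 genotype comparisons 1 member was higher at an unadjusted p below 0.05 in limma, EXPA1 in mock and EXPA8 after heat, and limma-voom called 0 higher. The heat changes differed between genotypes for 6 members, 4 with a positive and 2 with a negative difference, where 31.9% of all genes were called, 10.3% positive and 21.6% negative. The median change of the members was 0.16 for heat in the mutant and -0.13 for heat in the wild type, against -0.065 and 0.020 over all genes. For genotype it was -0.34 in mock and -0.09 after heat, against 0.063 and -0.035 over all genes. The 2 groups did not overlap for 5 of 8 members for heat in the mutant (61.6% of all genes), 7 for heat in the wild type (68.9%), 8 for genotype in mock (62.0%) and 6 for genotype after heat (65.3%).

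Some of these calls were close to the threshold. In the genotype comparison in mock, EXPA10 (-0.32 ± 0.10, adjusted p = 0.049) and EXPA6 (-0.20 ± 0.07, adjusted p = 0.0499) were 2 of the 5. EXPA10 lost its call without wild-type mock replicate 1, mutant mock replicate 2 or any 1 of the 4 heated libraries (-0.32 to -0.22, adjusted p = 0.058 to 0.29), and with limma-voom (-0.37, adjusted p = 0.091). EXPA6 lost its call without any 1 library other than wild-type mock replicate 2 (-0.21 to -0.14, adjusted p = 0.058 to 0.31). Each of these 2 calls held in 7 of 17 alternatives. After heat, EXPA1 was lower in the mutant by -0.12 ± 0.04 (adjusted p = 0.048), and lost this call without any 1 library other than the 2 of wild-type mock (-0.15 to -0.0863, adjusted p = 0.055 to 0.27). It also lost it with median-of-ratios scaling (-0.0772, adjusted p = 0.19). EXPA1 in mock was at 0.11 ± 0.04 (adjusted p = 0.063). Without mutant heat replicate 2 or wild-type heat replicate 1, the members called after heat numbered 1, which was EXPA10.

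Among all genes, the higher calls in each comparison depended on the scaling. As deposited they were 31.1% of calls for heat in the mutant, 56.1% for heat in the wild type, 62.8% for genotype in mock, 38.5% for genotype after heat and 32.2% for the difference of heat changes. With quantile scaling these shares were 48.0%, 42.9%, 47.1%, 54.8% and 52.4%. With median-of-ratios scaling they were 59.7%, 52.3%, 43.2%, 48.8% and 48.8%. Quantile scaling moved the median of all genes by 0.12 for the difference of heat changes and by less than that elsewhere.

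The order of levels shifted between groups. EXPA1 led in all 4 groups and EXPA8 came second, with no overlap between them in any group. In wild-type mock EXPA11 followed, then EXPA6, EXPA5, EXPA4, EXPA10, EXPA3 and EXPA15 in that order, and no neighbours overlapped. In mutant heat EXPA10 ranked 5, behind EXPA6 and EXPA11, with no overlap between neighbours. It ranked 7 in mutant mock, where EXPA4 and EXPA5 overlapped. In wild-type heat it ranked 4 behind EXPA6, and its libraries overlapped those of EXPA11. The summed FPKM of the 9 genes was 361 and 376 in mutant heat and 251 and 242 in mutant mock, against 397 and 391 in wild-type heat and 311 and 293 in wild-type mock. EXPA1 made up 64.0% of this sum in mutant heat and 52.0% in mutant mock, against 64.9% in wild-type heat and 39.3% in wild-type mock. The FPKM ratio of EXPA1 to EXPA8 was 3.36 and 3.25 in mutant heat and 1.89 and 1.95 in mutant mock, against 3.85 and 3.997 in wild-type heat and 1.11 and 1.13 in wild-type mock. In both genotypes heated leaves thus had the higher ratio, and among mock leaves the mutant had the higher one.

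**Figure D4:**
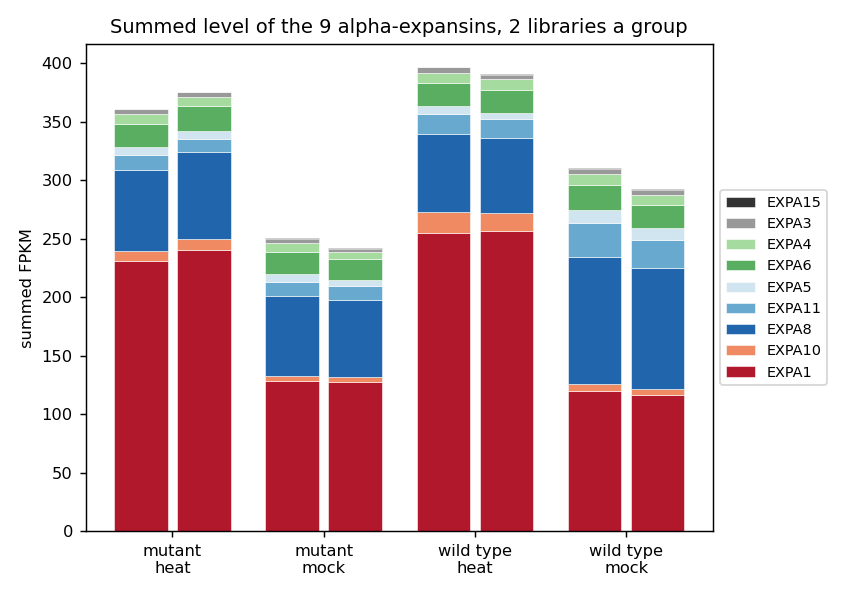
Summed FPKM (vertical axis) of the 9 alpha-expansins in each library, 2 bars a group, stacked by gene with EXPA1 at the base. Bars reach 361 and 376 in mutant heat, 251 and 242 in mutant mock, 397 and 391 in wild-type heat and 311 and 293 in wild-type mock.

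In the rest of the family, 8 of 26 genes passed the filter on low values. Listed at 0 in all libraries were 10 alpha-expansins, EXPA7 and EXPA18 of root hairs among them, and 4 beta-expansins. For heat in the mutant 1 of the 8 tested genes rose and 1 fell, and in the wild type 2 rose and 3 fell. For genotype 0 were higher and 2 lower in mock, and 1 higher and 3 lower after heat. The heat changes differed for 3, 2 of them positive and 1 negative. The shares of all genes called were 20.2% for heat in the mutant, 38.4% for heat in the wild type, 20.7% and 28.6% for genotype in mock and after heat, and 31.9% for the difference. EXPB3 and EXLA2 reached 1 FPKM in a single group of 2 libraries and so passed the filter through the group where they were high. The counts include them outside the mutant heat comparison, and no weight is put on their calls.

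EXPA9 had 9.99 and 12.4 FPKM in mutant heat and 5.70 and 6.17 FPKM in mutant mock, against 14.2 and 14.4 FPKM in wild-type heat and 6.04 and 6.17 FPKM in wild-type mock. Like EXPA1 and EXPA10 it rose in both genotypes, by 0.81 ± 0.10 in the mutant (adjusted p = 0.00036) and 1.11 ± 0.10 in the wild type (adjusted p = 3.0e-06). EXPA16 fell in both, by 1.15 ± 0.12 in the mutant (adjusted p = 0.00013) and 0.70 ± 0.12 in the wild type (adjusted p = 0.00066). Its levels were 1.65 and 1.61 FPKM in mutant heat and 4.90 and 4.78 FPKM in mutant mock, against 2.10 and 1.81 FPKM in wild-type heat and 3.38 and 4.22 FPKM in wild-type mock. The difference between heat changes did not pass for EXPA9 (-0.30 ± 0.14, adjusted p = 0.13) or EXPA16 (-0.45 ± 0.17, adjusted p = 0.063). Between genotypes EXPA9 was lower in the mutant after heat by -0.34 ± 0.10 (adjusted p = 0.025). It was not called in mock (-0.04 ± 0.10, adjusted p = 0.83), and EXPA16 was called in neither genotype comparison.

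The expansin-like gene EXLA1 had 38.5 and 35.1 FPKM in mutant heat and 40.5 and 36.0 FPKM in mutant mock, against 30.3 and 29.7 FPKM in wild-type heat and 90.3 and 83.7 FPKM in wild-type mock. As for EXPA8, its wild-type mock libraries stood above the other 6. It fell after heat in the wild type by 1.504 ± 0.07 (adjusted p = 6.2e-09), with -0.05 ± 0.07 in the mutant (adjusted p = 0.61) and a difference of 1.45 ± 0.10 (adjusted p = 5.3e-07). EXLA1 was lower in the mutant in mock by -1.17 ± 0.07 (adjusted p = 2.9e-07). After heat it was higher in the mutant by 0.28 ± 0.07 (adjusted p = 0.0079). EXLA2 had 1.77 and 1.03 FPKM in wild-type mock and between 0.150 and 0.499 FPKM in the other 6 libraries, on 3 to 12 reads each. The beta-expansin EXPB3 had 0.669 and 0.824 FPKM in mutant heat and 0.519 and 0.467 FPKM in mutant mock, against 2.53 and 2.69 FPKM in wild-type heat and 0.583 and 0.643 FPKM in wild-type mock. For EXLA2 and EXPB3 these levels are a description, since the filter had selected both genes by them. EXLB1 was lower in the mutant after heat by -0.26 ± 0.09 (adjusted p = 0.039).

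Across 8 libraries, the profiles nearest to the 3 most variable members were looked up outside the expansin family. Candidates had a symbol and a mean of at least 5 FPKM. All expansin and expansin-like genes were left out, so EXPA9 could not be listed however near it lay. Likeness was the root mean square difference of log2(FPKM + 1), each profile centred on its own mean. Nearest to EXPA10 were GolS1 (0.18), LHCB4.3 (0.18) and GASA1 (0.21). GolS1, a galactinol synthase gene, averaged 11.0 FPKM in mutant heat and 5.85 FPKM in mutant mock, against 26.6 FPKM in wild-type heat and 8.23 FPKM in wild-type mock. Nearest to EXPA1 were TPPJ (0.16), ATCAD4 (0.17) and CTF2B (0.18). TPPJ, a trehalose phosphate phosphatase gene, averaged 7.96 FPKM in mutant heat and 5.34 FPKM in mutant mock, against 9.41 FPKM in wild-type heat and 3.66 FPKM in wild-type mock. Nearest to EXPA11 were COR413IM1 (0.11), XTH7 (0.12) and DRT100 (0.13). XTH7, a gene for a wall enzyme that cuts and rejoins xyloglucan, averaged 36.3 FPKM in mutant heat and 38.2 FPKM in mutant mock, against 42.6 FPKM in wild-type heat and 72.7 FPKM in wild-type mock.

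Guard cell markers, of interest beside EXPA1, summed to 60.7 to 65.3 FPKM in mutant heat and 54.1 to 56.7 FPKM in mutant mock, against 59.6 to 60.0 FPKM in wild-type heat and 58.9 to 60.7 FPKM in wild-type mock. Of the 4 markers, MYB60, FAMA, KAT1 and GASA9, 1 rose after heat in the mutant (GASA9, 0.33 ± 0.06) and 1 in the wild type (KAT1, 0.28 ± 0.09). In the other genotype each had an uncalled change downward, GASA9 of -0.13 (adjusted p = 0.14) and KAT1 of -0.25 (adjusted p = 0.058). GASA9 was lower in the mutant in mock (-0.24, adjusted p = 0.019). After heat GASA9 was higher (0.22, adjusted p = 0.019) and KAT1 lower (-0.35, adjusted p = 0.0089) in the mutant. Of 5 cell division markers 2 were tested, CDKB2;1 and CYCD3;1. Both fell after heat in the wild type, by 0.47 on the log2 scale each. In the mutant neither was called, at -0.30 (adjusted p = 0.19) for CDKB2;1 and 0.12 (adjusted p = 0.58) for CYCD3;1. Neither was called between genotypes in mock, and after heat CYCD3;1 was higher in the mutant (0.39, adjusted p = 0.048). The difference of heat changes was called for 1 of them, with a positive sign. Vascular markers summed to 630.0 and 655 FPKM in mutant heat and 615 and 624 FPKM in mutant mock, against 556 and 563 FPKM in wild-type heat and 469 and 471 FPKM in wild-type mock. Of these 5 markers 1 rose and 0 fell after heat in the mutant, and 2 rose and 2 fell in the wild type, while in mock 2 were higher in the mutant, the sugar transporter genes SWEET11 and SWEET12. The part of guard, dividing and vascular cells in the expansin values was not tested. No annotated gene overlapped any of the 9 members. Between the transcripts of a member and those of 35 other expansins the longest identical run was 33 bases, between EXPA10 and EXPA15.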

How the data were processed

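Leaf RNA was extracted with Trizol, treated with DNase and sequenced from directional libraries, per the labels' protocols. FPKM of 34354 genes in 8 libraries are what the authors deposited. TopHat, TopHat2, edgeR and the TAIR10 build are named in the submitters' processing notes. How reads were counted, and whether by strand, is not given in the sources used here. FPKM are scaled to library totals, so abundant genes that move shift all others.

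Whole reads recovered from FPKM steps (within 0.1 read) were found for 100.0% of 23543 rows above 0, with annotated lengths for 13159 and fitted lengths otherwise. Over 1500 bp, 1 read was 0.0226 to 0.0396 FPKM, which limits low genes such as EXPA15. Intervals from reads cover counting error only. Replicates of a group differed by more than counting error alone, with a mean chi-square over genes of 2.15 to 5.30. That spread cannot tell separate plants from 1 library sequenced in separate runs.

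The 16831 genes that reached 1 FPKM in 2 or more libraries were tested as log2(FPKM + 1) with limma 3.58.1 in R 4.3.3, with an intensity trend and group means over 8 libraries (4 residual degrees of freedom). The pseudocount of 1 FPKM understates changes of low genes. There were 5 two-sided comparisons, with Benjamini-Hochberg adjustment over all genes within each. The step was tested on simulated data. Alternatives were a pseudocount of 0.1, no filter, a mean of at least 5 FPKM, 2 other scalings, a replicate block, a fit of only the 2 groups compared, no intensity trend, limma-voom on recovered reads, and each library left out in turn, which assumes that a lone library varies like the other groups. Members, gene lists and motifs were chosen with earlier results of these data known. The text gives values for all 9 members and for every tested gene of the family that was called. It also gives the 3 profiles from outside the family that lay nearest to each of the 3 most variable members. EXPA19 was not analysed here. Sequences and gene starts are from RefSeq TAIR10.1, and figures were drawn with matplotlib 3.10.9 in Python 3.11.15.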

Additional observations from a re-analysis of the deposited data

Results flagged for a closer look

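For 6 of the 8 tested alpha-expansins the heat change differed between mutant and wild type by a test of the difference itself (limma, log2 scale). The difference is the mutant change minus the wild-type change, and 31.9% of all genes were called for it. EXPA8 differed by 0.78, EXPA5 by 0.74 and EXPA11 by 0.72, and these 3 fell after heat in the wild type while no change passed in the mutant. EXPA6 differed by 0.28 with no heat change past the threshold in either genotype. EXPA10 differed by -0.55 and EXPA1 by -0.23, and both rose after heat in both genotypes. Of these calls, that of EXPA6 held in 8 of 16 alternatives, and those of EXPA10 and EXPA1 were lost in some. Those of EXPA8, EXPA5 and EXPA11 held in all 16.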

How the results depend on the processing

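The 40 member changes were recomputed in 667 alternatives, of which 603 kept direction and call, 44 lost the call, 13 gained one and 7 changed sign. The 5 members called for heat in the wild type were called in every alternative run, as were EXPA1 and EXPA10 for heat in the mutant. For heat in the mutant 4 members were called with median-of-ratios scaling in place of 2, and 2 to 3 with libraries left out. For genotype in mock 3 were called in place of 5 without the filter on low values, with only the compared groups and without an intensity trend, 7 under either rescaling (median-of-ratios or quantile), and 3 to 6 with libraries left out. For genotype after heat 4 were called in place of 3 with quantile scaling, 2 without the filter and without the trend, and 1 to 3 with libraries left out. For the difference of heat changes 4 to 6 were called, with libraries left out and in the other alternatives alike. Outside the fits with 1 library left out, calls over all genes moved as well. For heat they numbered 2337 to 3978 in the mutant (3401 in the main fit) and 5031 to 6725 in the wild type (6468). For genotype they numbered 2514 to 4475 in mock (3479) and 3840 to 5141 after heat (4814). For the difference of heat changes they numbered 4451 to 5669 (5371). The settings of the filter also changed how many genes were tested. Sign changes met values that were not called. For heat in the mutant these were EXPA11 (-0.063 to 0.16 over libraries left out, lowest without mutant heat replicate 1), EXPA3 (-0.0012 to 0.30) and EXPA5 (-0.020 to 0.25, both lowest without mutant mock replicate 2). For genotype after heat they were EXPA3 (0.035 with quantile scaling, -0.16 to 0.034 over libraries left out, highest without wild-type heat replicate 1) and EXPA5 (-0.046 to 0.29, lowest without wild-type heat replicate 2). For the difference of heat changes it was EXPA4 (-0.030 to 0.37, lowest without mutant mock replicate 2). The cause was not tested. EXPA3 has no value with a mean of at least 5 FPKM, since that removes it.

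Over all genes, 3401 calls for heat in the mutant numbered 1855 when mutant heat replicate 1 was left out, 1510 when replicate 2 of that group was, and 1453 when mutant mock replicate 2 was. For genotype in mock 3479 became 1836 without mutant mock replicate 2 and 1781 without wild-type mock replicate 1. For genotype after heat 4814 became 3171 without wild-type heat replicate 1. Deviations of samples with the same replicate number correlated at 0.19 between mutant mock and wild-type mock and at -0.028 to 0.089 between the other pairs of groups. Since not every pair was above 0.1, the numbers were not taken as pairs. With a replicate block 2 members were called for heat in the mutant, 5 for heat in the wild type, 6 for genotype in mock, 3 for genotype after heat and 6 for the difference, and over all genes 3713, 6725, 3878, 5141 and 5645. The member gained in mock was EXPA3 (-0.36, adjusted p = 0.040), and the block changed no other member call. With 2 libraries a group, and 4 to 27 reads for EXPA15, small differences could not be detected.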
